A study of Mus musculus with 6 samples.

Results

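The genes described here are the VEGF and angiopoietin ligands Vegfa, Vegfb, Vegfc, Angpt1 and Angpt2, their receptors Kdr, Flt1 and Tek, and the endothelial adhesion genes Pecam1 and Cdh5. They were chosen by symbol as angiogenic signals and as a check for vessel RNA, and all 10 were found among the 17213 genes of the count table. Its 6 libraries are from dental follicle cells of mice: 3 carry the label Het, with the genotype Pth1r(+/-), and 3 the label KO, with Pth1r(-/-). All 6 came from mandibular molars at postnatal day 8, from cells that the labels call PTHrP+ and that were sorted for the red reporter tdTomato after a tamoxifen pulse in both groups. The series text places that pulse at day 3 and the sample descriptions place it at day 8. No source used here names the driver of the recombination or the animals behind each library, so the p-values reflect no more than how these samples vary, and that variation may be technical. The comparison asks how these cells differ when Pth1r, the receptor of parathyroid hormone and PTHrP, is conditionally deleted.

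VEGF ligands are secreted growth factors that make endothelial cells divide, migrate and form vessels, mainly through the tyrosine kinase receptor Kdr, while Flt1 binds Vegfa and Vegfb tightly and can act as a decoy. Angpt1 activates the endothelial receptor Tek and stabilises vessels, and Angpt2 competes with it on the same receptor. The receptors and the adhesion genes are typical of endothelium, whereas connective tissue and bone-forming cells are well known sources of the ligands. The dental follicle, the sac of mesenchyme around the unerupted tooth, is itself a vascular tissue, so a sort from it can carry vessel RNA.

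Libraries held 34019925 to 66147200 counts. Levels are CPM, counts relative to the library's total after TMM scaling, and 14632 genes passed the filter on low counts. Pth1r, the targeted gene, was at 371, 286 and 346 CPM in Het replicates 0, 1 and 2. In KO replicates 0, 1 and 2 it was at 961, 608 and 472 CPM, so every KO library was above every Het library. The log2 difference was 1.02, with an adjusted p of 0.740 in edgeR and 0.0564 in DESeq2. The counts thus showed no loss of Pth1r in the libraries labelled KO. Whole-gene counts cannot tell transcripts with the deleted part from those without it, and directions below are those of the libraries labelled KO. Beside the tissue label, Pthlh, which encodes PTHrP, was at 260 to 350 CPM and Col1a1, the main collagen of connective tissue, at 9738 to 41011 CPM. These levels do not show that the libraries hold follicle cells alone, and markers of dental epithelium summed to 4929 to 10308 CPM. Het replicate 2 held the lowest Col1a1 level and the fewest genes with a count, 14668 against 15175 to 16128 in the other 5 libraries.

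The promoters of 3 members are shown. Kdr was counted in every library and Flt1, a close relative often made by the same cell, hardly at all. Vegfa is the ligand whose groups did not overlap in CPM. Each line holds the 250 bases before the start site, 5′ to 3′ on the gene's own strand, from the RefSeq promoter table (GRCm38.p6), in which 6 of the 10 members had an entry. Capitals mark matches on either strand to TGACGTCA, the cAMP response element, to AGGAAG, a core bound by ETS factors of endothelium, and to ACGTG and GCGTG, the cores of hypoxia response elements; no 2 of these matches overlap in the lines shown.
Kdr, chr5:75978456-75978705, minus strand: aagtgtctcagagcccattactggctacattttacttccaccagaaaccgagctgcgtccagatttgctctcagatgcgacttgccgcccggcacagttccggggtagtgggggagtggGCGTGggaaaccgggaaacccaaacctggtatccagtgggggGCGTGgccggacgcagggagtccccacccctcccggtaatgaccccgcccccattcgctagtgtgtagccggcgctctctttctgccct
Flt1, chr5:147726012-147726261, minus strand: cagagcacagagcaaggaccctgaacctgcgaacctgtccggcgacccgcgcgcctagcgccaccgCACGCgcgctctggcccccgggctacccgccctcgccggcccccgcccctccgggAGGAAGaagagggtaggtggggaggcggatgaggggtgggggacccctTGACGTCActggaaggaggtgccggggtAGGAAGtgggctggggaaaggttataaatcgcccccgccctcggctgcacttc
Vegfa, chr17:46032378-46032627, minus strand: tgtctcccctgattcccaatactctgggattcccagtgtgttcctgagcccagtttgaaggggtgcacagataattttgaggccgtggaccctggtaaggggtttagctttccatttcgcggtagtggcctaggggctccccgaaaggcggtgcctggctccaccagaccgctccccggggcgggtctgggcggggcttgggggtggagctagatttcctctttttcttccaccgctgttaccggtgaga

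The Flt1 window held 1 TGACGTCA, 81 to 74 bases before the start, which was present in 1.55% of 32851 promoter windows of this length. It also held 2 AGGAAG, found in 29.5% of windows, and 1 GCGTG, found in 28.2%. The Kdr window held 2 GCGTG and none of the other words, and the Vegfa window shown held no match to any of the 4. A second Vegfa entry of the table, for another start site, held 1 ACGTG and 1 GCGTG, 211 to 207 and 218 to 214 bases before that start, and ACGTG was found in 16.6% of windows. These are matches of letters, not measured binding sites.

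The ligands were the abundant members. Per gene length, in the FPKM values of the authors' deposited table (which adjusts for gene length as well as depth), Vegfb ranked first with a median of 68.8 over the 6 libraries. Vegfc followed with a median of 25.3 FPKM and Vegfa with 22.5 FPKM, and the ranges of these 2 overlapped. Angpt1 had a median of 3.10 FPKM and Angpt2 of 1.68 FPKM, also with overlapping ranges. All 5 receptor and adhesion genes had a median below 1 FPKM, from 0.890 for Kdr and 0.494 for Pecam1 to 0.0882 for Cdh5, 0.0857 for Tek and 0.00125 for Flt1, and from Angpt1 down each range overlapped that of the next gene. Breaks without overlap lay below Vegfb and below Vegfa.

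With edgeR's quasi-likelihood test, 0 of the 9 members that passed the filter had an adjusted p under 0.05, as did 0% of all genes tested, and their adjusted p-values were 0.976 to 0.981. The tenth, Flt1, was too low to be tested in edgeR. An unadjusted p under 0.05 was found for 1 member, Angpt1, on the higher side, where 2.58% of all genes tested had one (1.71% on the lower side). In DESeq2, where 0.509% of genes were called, 0 of the 10 members passed (adjusted p 0.615 to 0.990). An unadjusted p under 0.05 in DESeq2 was found for 1036 of 17213 genes. Among the 10 members it was found for 3, Angpt1 higher and Kdr and Pecam1 lower. The groups did not overlap for 3 of the 9, Vegfa on the higher side and Kdr and Pecam1 on the lower, where 10.7% of all genes tested did not overlap (5.84% higher and 4.83% lower).

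Without Het replicate 2 the groups did not overlap for 5 of the 9, with Angpt1 and Angpt2 added on the higher side, where 20.7% of all genes did not overlap. Without both libraries numbered 2 it was again 5 of the 9, against 35.3% of all genes. The count of members is read against these shares, which were higher with fewer libraries.

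**Figure D1:**
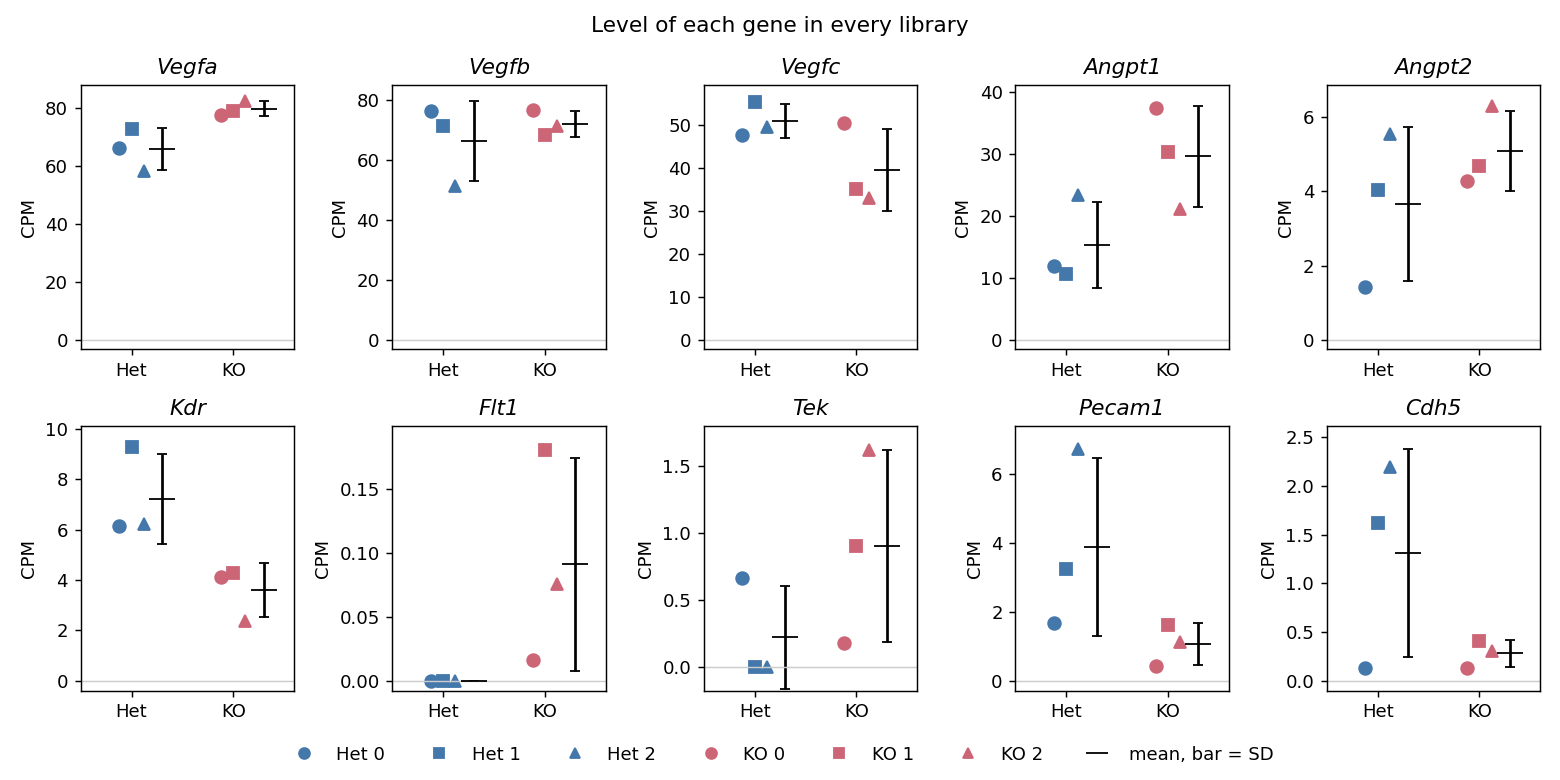
Level in CPM (vertical axes, linear, with their own scale for each gene) of the 10 genes in the 3 libraries labelled Het and the 3 labelled KO. Symbols are libraries by replicate number and the black dash with its bar is the mean with the SD; Vegfa is higher and Kdr and Pecam1 lower in all 3 KO libraries than in any Het library, and Flt1 stays under 0.2 CPM throughout.

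Vegfa (chromosome 17, 46016993 to 46032369, mm10, minus strand), the principal growth factor of endothelium, was at 66.2, 72.8 and 58.2 CPM in Het replicates 0, 1 and 2 and at 77.5, 79.1 and 82.6 CPM in KO replicates 0, 1 and 2. In CPM the KO libraries were all higher and lay close together, with means of 79.7 ± 2.56 against 65.7 ± 7.27 CPM (SD, n = 3 each). Vegfa overlapped between the groups in FPKM, at 21.3, 23.6 and 14.5 in Het and 24.9, 25.1 and 21.5 in KO libraries. Its fitted log2 difference was 0.28 (standard error 0.18, 95% interval -0.13 to 0.68), and edgeR's adjusted p was 0.976.

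Vegfb (chromosome 19, 6982473 to 6987651, minus strand), a ligand of Flt1 linked to vessel survival and lipid uptake, was at 76.5, 71.4 and 51.3 CPM in Het and 76.7, 68.4 and 71.3 CPM in KO libraries, in replicate order. In CPM, Het replicate 2 stood lower than the others. In FPKM it did not, at 63.7 beside 63.6 in KO replicate 1, and KO replicate 2 was highest at 97.1 FPKM. The log2 difference of 0.12 (95% interval -0.35 to 0.59, edgeR adjusted p = 0.981) became -0.032 without Het replicate 2. Vegfc (chromosome 8, 54077606 to 54187096), best known as the growth factor of lymphatic vessels through Flt4, was at 47.6, 55.2 and 49.6 CPM in Het and 50.5, 35.1 and 32.9 CPM in KO libraries. KO replicate 0 lay among the Het libraries and the other 2 KO libraries below them. Its log2 fold change was -0.36 (95% interval -0.87 to 0.15, edgeR adjusted p = 0.976), the only negative one among the 5 ligands.

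Angpt1 (chromosome 15, 42424723 to 42676977, minus strand), the activating ligand of Tek, was at 11.9, 10.6 and 23.3 CPM in Het replicates 0, 1 and 2 and at 37.3, 30.2 and 21.1 CPM in KO replicates 0, 1 and 2. In CPM, Het replicates 0 and 1 were far below every KO library, and Het replicate 2 was slightly above KO replicate 2. In FPKM, Angpt1 was at 2.83, 2.61 and 3.29 in Het and 8.96, 7.36 and 2.91 in KO libraries. There KO replicate 2 lay within the Het range. The means were 29.5 ± 8.11 against 15.3 ± 7.0 CPM (SD, n = 3 each). The fitted log2 difference was 0.95 (standard error 0.36), with a 95% interval from 0.13 to 1.77 that takes no account of the number of genes tested (edgeR adjusted p = 0.976). Without both libraries numbered 2 the log2 fold change was 1.59 and the adjusted p 0.263. An antisense gene, Gm17473, overlaps an Angpt1 exon, and since the strand setting of the counting is not given, reads of the 2 cannot be told apart.

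Angpt2 (chromosome 8, 18690263 to 18741562, minus strand), the context-dependent antagonist, was at 1.42, 4.04 and 5.53 CPM in Het and 4.28, 4.68 and 6.30 CPM in KO libraries. Het replicate 0 alone stood low, and the groups overlapped. The log2 fold change of 0.48 (95% interval -0.88 to 1.84, edgeR adjusted p = 0.981) became 0.09 without that library. Endothelial cells are a known source of this ligand.

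Kdr (chromosome 5, 75932827 to 75978458, minus strand), the signalling receptor for Vegfa, was at 6.14, 9.27 and 6.21 CPM in Het and 4.14, 4.29 and 2.38 CPM in KO libraries. Every KO library was lower than every Het library, with means of 3.60 ± 1.06 against 7.21 ± 1.79 CPM (SD, n = 3 each). Its fitted log2 difference was -1.0 (standard error 0.46, 95% interval -2.05 to 0.05), and edgeR's adjusted p was 0.976.

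Flt1 (chromosome 5, 147561604 to 147726011, minus strand) was nearly absent from the counts. It had 0 counts in all 3 Het libraries and 1, 11 and 4 counts in KO replicates 0, 1 and 2, which is 0.0164, 0.181 and 0.0761 CPM. A count of 0 allows up to 3 counts, or 0.0482, 0.0835 and 0.0843 CPM in Het replicates 0, 1 and 2, and covers counting error only. With each group pooled and the Het group set at a floor of 3 counts in all, the 16 counts of the KO group were at least 4.09-fold higher. That ratio does not hold library by library, and 11 of the 16 counts came from 1 library. KO replicate 0 was below the floors of all 3 Het libraries, and KO replicate 2 below those of Het replicates 1 and 2. In DESeq2, which fitted Flt1, its adjusted p was 0.965. Kdr had 125 to 382 counts in the same 6 libraries. The counts of Flt1 were the same in the authors' deposited table of estimated counts, as were those of the other 9 members in all 6 libraries (within 1e-09).

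Tek (chromosome 4, 94739289 to 94874976), the receptor of both angiopoietins, had 41, 0 and 0 counts in Het and 11, 55 and 85 counts in KO libraries, at most 1.62 CPM. The Het counts came from 1 library, and without it no Het count is left. The fitted log2 difference of 1.98 (95% interval -2.05 to 6.02) was 1.26 without KO replicate 2 and 0.72 without both libraries numbered 2. The edgeR adjusted p was 0.976. At these counts the interval spans both directions.

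Pecam1 (chromosome 11, 106654217 to 106750628, minus strand), an adhesion protein of endothelial junctions that leukocytes and platelets also carry, was at 1.69, 3.23 and 6.71 CPM in Het and 0.443, 1.63 and 1.14 CPM in KO libraries. The groups did not overlap, but Het replicate 0 and KO replicate 1 were nearly equal. The log2 fold change of -1.85 (standard error 0.83, 95% interval -3.73 to 0.02, edgeR adjusted p = 0.976) was -1.19 without Het replicate 2 and -1.24 without both libraries numbered 2. Cdh5 (chromosome 8, 104101625 to 104144511), the cadherin found almost only in endothelium, was at 0.129, 1.61 and 2.19 CPM in Het and 0.131, 0.411 and 0.304 CPM in KO libraries. Het replicate 0, with 8 counts, was as low as KO replicate 0, also with 8. The fitted log2 difference was -2.20 (standard error 1.22, 95% interval -4.97 to 0.56, edgeR adjusted p = 0.976), and -1.07 in limma-voom with quality weights.

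**Figure D2:**
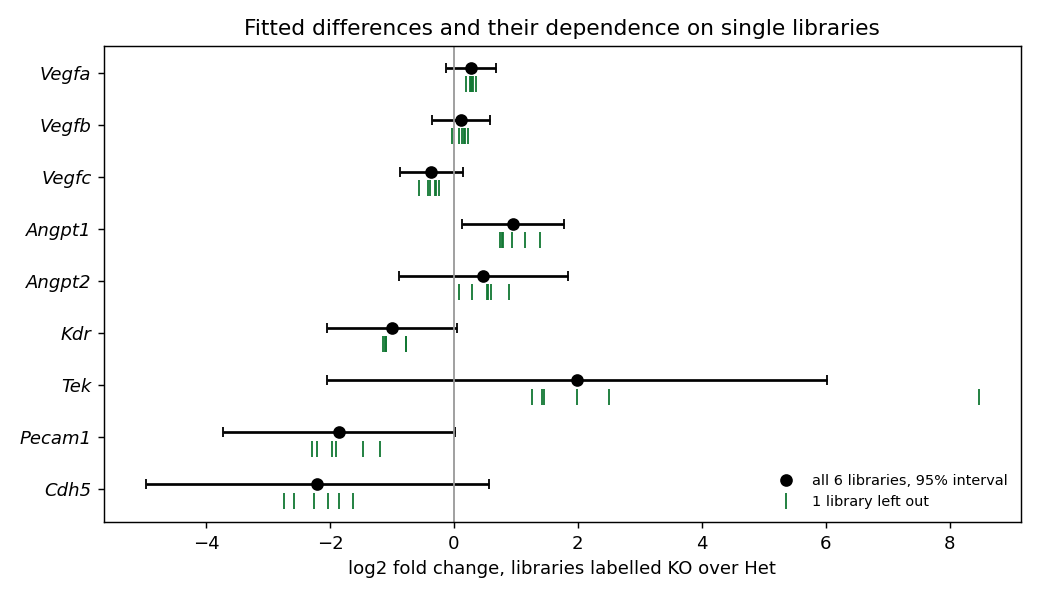
Fitted log2 fold change of the libraries labelled KO over those labelled Het (horizontal axis) for the 9 tested genes. Black points with bars are the fit of all 6 libraries with its 95% interval and green ticks are fits with 1 library left out; only the Angpt1 interval stays on 1 side of 0, and the Tek tick at 8.47 is the fit without Het replicate 0, which leaves no Het count.

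Summed over Kdr, Flt1, Tek, Pecam1 and Cdh5, the level was 8.62, 14.1 and 15.1 CPM in Het replicates 0, 1 and 2 and 4.91, 7.41 and 5.52 CPM in KO replicates 0, 1 and 2. The sums did not overlap, and in each library Kdr alone made up 41.1 to 84.3% of them. Without Kdr they were 2.48, 4.84 and 8.90 CPM in Het and 0.772, 3.12 and 3.14 CPM in KO libraries, and overlapped. A sum over members chosen with their values known is a description and has no test. In bulk RNA, fewer cells of a type and less RNA per cell cannot be told apart.

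A wider list of endothelial markers had 24 genes in the table and 21 tested. Its sum was 204 to 210 CPM in Het and 170 to 180 CPM in KO libraries, but Eng and Ramp2, which are not limited to endothelium, supplied 45.1 to 64.5% of it. Without these 2 genes the sums were 96.7, 78.6 and 114 CPM in Het and 60.5, 88.5 and 82.2 CPM in KO libraries and overlapped. In each library 10 to 14 of the 24 were below 1 CPM and 3 to 7 were at 0. The capillary sialomucin Emcn was at 0.789 CPM or less in every library. The tight junction gene Cldn5 was at 0.868 CPM or less, with 0 in Het replicate 2 and KO replicate 0. Other genes of this list were well above these levels in all 6 libraries. Clec14a was at 12.9 to 18.1 CPM, Egfl7 at 7.41 to 29.5 CPM and Fli1 at 6.37 to 11.3 CPM.

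Of these 21 genes, fitted values were higher for 7 and lower for 14 (median log2 difference -0.19), beside 49.0% higher, 51.0% lower and a median of -0.01 over all genes tested. None passed edgeR's adjusted threshold, DESeq2 called 1, and an edgeR unadjusted p under 0.05 was found for 1 higher and 1 lower gene. The higher one was Robo4, the DESeq2 call (adjusted p 0.0265, edgeR 0.661), an endothelial guidance receptor, at 0 in all 3 Het libraries and 0.213, 1.31 and 1.35 CPM in KO libraries. With each group pooled and the Het group at a floor of 3 counts in all, that was at least 41.9-fold higher. That ratio does not hold library by library, as KO replicate 0 was at 0.213 CPM beside floors of 0.0482 to 0.0843 CPM in the Het libraries. The lower one was Sox7, an endothelial transcription factor, at 0.515, 1.98 and 0.197 CPM in Het against 0.0328, 0.0329 and 0 CPM in KO libraries. Both genes were under 2 CPM in all 6 libraries. Over the 120 listed genes in the table that are not members, DESeq2 called 4, Robo4, Apln, Cxcl14 and Tagln, beside 0.509% of all genes. The lists were chosen with earlier results of these data known, so this count is a description and not a test of the lists.

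The other ligands and receptors of the 2 families gave 3 higher and 4 lower fitted values among 7 tested genes, of which 0 passed in edgeR or DESeq2. Pgf, a VEGF family ligand that binds Flt1, was by far the most abundant of them. It was at 168, 160 and 188 CPM in Het and 153, 129 and 114 CPM in KO libraries, a log2 fold change of -0.38 without overlap (edgeR adjusted p = 0.976). Per length it was at 89.9 to 133 FPKM in Het and 73.2 to 98.3 FPKM in KO libraries, so in FPKM the groups overlapped. Its whole range of 73.2 to 133 FPKM overlapped that of Vegfb. Ptprb, the phosphatase that restrains Tek, was at 12.9, 20.3 and 16.5 CPM in Het and 12.7, 11.01 and 7.72 CPM in KO libraries, barely without overlap (log2 fold change -0.66, edgeR adjusted p = 0.976). The co-receptor Nrp2 was at 51.5 to 81.5 CPM in Het and 66.9 to 130 CPM in KO libraries. Flt4, the receptor of Vegfc, was at 0 in 4 of the libraries, the glycoprotein gene Pdpn, also a mesenchymal one, was at 31.2 to 45.5 CPM, and the lymphatic markers Prox1 and Lyve1 were at 0.273 CPM or less apart from 2.56 CPM of Lyve1 in Het replicate 2. Kdr was thus the best counted of the 3 VEGF receptor kinases Kdr, Flt1 and Flt4.

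Genes of the oxygen-sensing pathway, which induces Vegfa, were tested as 16 genes, of which 6 had higher and 10 lower fitted values (median log2 fold change -0.07) and 0 passed in either tool. In CPM the groups did not overlap for 2 of the 16, both higher, beside 10.7% of all genes tested. Hif1a, the oxygen-regulated transcription factor, was 1 of these, at 160, 126 and 144 CPM in Het and 164, 169 and 166 CPM in KO libraries. Its log2 fold change was 0.22 (edgeR adjusted p = 0.976). In FPKM Hif1a overlapped, at 16.9 to 32.9 in Het and 19.1 to 37.3 in KO libraries. Ndrg1, one of its targets, was at 63.2, 46.5 and 22.0 against 87.5, 64.9 and 67.9 CPM, also without overlap (log2 fold change 0.74, edgeR adjusted p = 0.976). Epas1, the related factor of endothelium, was at 1.40, 4.26 and 6.38 CPM in Het and 0.624, 1.45 and 2.82 CPM in KO libraries, with overlap. The common targets Slc2a1, Pgk1 and Ldha overlapped between groups.

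Among 12 other vessel-directed factors, 7 had higher and 5 lower fitted values, edgeR called 0 and DESeq2 called 1, Apln. Apln, a peptide of sprouting vessels, was at 0 in all Het libraries and at 2.02, 2.15 and 0.989 CPM in KO libraries. Its adjusted p was 0.000212 in DESeq2 and 0.634 in edgeR. With each group pooled on the same floor, Apln was at least 78.2-fold higher, a ratio that does not hold library by library. Efnb2, an arterial ephrin, was at 39.7, 45.2 and 45.1 against 31.2, 30.9 and 31.1 CPM, without overlap (log2 fold change -0.48, edgeR adjusted p = 0.976). Among 8 secreted inhibitors of angiogenesis, 3 had higher and 5 lower fitted values (median -0.24), edgeR called 0 and DESeq2 called 1, Cxcl14. Vash1, an inhibitor that endothelial cells secrete, was at 7.38, 5.82 and 21.5 CPM in Het and 5.47, 3.04 and 3.35 CPM in KO libraries. The chemokine Cxcl14 was at 584, 693 and 752 against 456, 419 and 422 CPM, a log2 fold change of -0.65 (adjusted p 0.0493 in DESeq2 and 0.814 in edgeR).

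Markers of other cells that a sort could hold were measured beside the endothelial members. Dental epithelium was plainly represented, with 8 of 8 markers detected in every library and sums of 5040 to 8093 CPM in Het and 4929 to 10308 CPM in KO libraries; the enamel gene Amelx alone was at 1751 to 3341 CPM, and Ambn, another enamel matrix gene, at 1493 to 3894 CPM in Het and 2120 to 6067 CPM in KO libraries. Odam, a gene of late ameloblasts, was at 47.7 to 652 against 128 to 189 CPM. Since epithelium can also make Vegfa, these bulk values do not assign the ligand to a cell, and the part of this RNA in the Vegfa values was not tested. Leukocyte markers summed to 8.59, 32.3 and 31.0 CPM in Het and 11.3, 50.9 and 63.1 CPM in KO libraries, with 10 of 10 fitted values higher and 0 passed in either tool. The macrophage gene Emr1 was at 0, 0.278 and 0 CPM in Het and 0.0657, 2.94 and 1.64 CPM in KO libraries, and the myeloid integrin Itgam at 1.40, 0 and 0.0843 against 0.607, 5.83 and 3.84 CPM. Pecam1, which leukocytes carry, was lower in the KO libraries, while the leukocyte sums overlapped, and the part of leukocyte RNA in its values was not tested. Platelet markers summed to 21.9 to 29.3 against 12.8 to 32.2 CPM. Itga2b, Gp1bb and Itgb3 were counted in all 6 libraries, at 1.77 to 2.78, 3.995 to 11.05 and 5.23 to 23.7 CPM, Pf4 was at 0 to 1.43 CPM, and Gp9 was at 0 in 5 libraries. Gp1bb was lower in the KO libraries without overlap (log2 fold change -0.75, edgeR adjusted p = 0.976). Erythroid markers summed to 32.4 to 103 CPM in Het and 43.4 to 129 CPM in KO libraries, with 3 higher and 1 lower fitted value among 4. Alas2, the heme synthesis enzyme of red cells, was at 8.83, 12.8 and 7.16 against 11.7, 32.5 and 28.8 CPM (log2 fold change 1.34, edgeR adjusted p = 0.938), and Beta-s, a globin, at 17.2 to 81.9 against 30.7 to 85.3 CPM. Follicle mesenchyme markers, 10 of 10 detected in every library, gave 4 higher and 6 lower fitted values, and 0 genes passed in either list with either tool. Twist1, a mesenchymal transcription factor, was at 219, 209 and 270 against 202, 157 and 158 CPM, without overlap, and Postn, a matrix gene of the periodontal ligament, at 677 to 879 against 431 to 703 CPM.

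Mural cells, the pericytes and smooth muscle cells that wrap vessels and can themselves secrete Angpt1, had 12 markers in the table and 10 tested, 3 with higher and 7 with lower fitted values (median -0.15). In this list edgeR called 0 and DESeq2 called 1, Tagln. Their sum was 1178 to 1248 CPM in Het and 858 to 1043 CPM in KO libraries without overlap, and most of it came from the actin gene Acta2, at 717, 708 and 814 against 569, 487 and 525 CPM. Tagln, a smooth muscle cytoskeletal gene, was at 146, 148 and 210 against 95.5, 83.1 and 83.9 CPM (adjusted p 0.00886 in DESeq2 and 0.634 in edgeR). Without Acta2 the mural sums were 461, 538 and 434 CPM in Het and 474, 528 and 333 CPM in KO libraries, and overlapped. Pdgfrb, the growth factor receptor of pericytes, was at 94.2, 121 and 61.9 against 166, 193 and 82.2 CPM (log2 fold change 0.67), and the pericyte proteoglycan gene Cspg4 at 47.5, 34.2 and 18.8 against 80.4, 68.0 and 32.5 CPM (log2 fold change 0.85), both with overlap and an edgeR adjusted p of 0.976. Kcnj8 was at 33.5 to 99.0 CPM, Abcc9 at 22.9 to 49.8 CPM and Notch3 and Mcam at 8.01 to 17.2 CPM over the 6 libraries, whereas Des and Higd1b were at 0 in 4 libraries each. These bulk values do not assign Acta2, Tagln, Pdgfrb or Cspg4 to mural cells. The part of mural RNA in the sums and in the Angpt1 values was not tested.

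**Figure D3:**
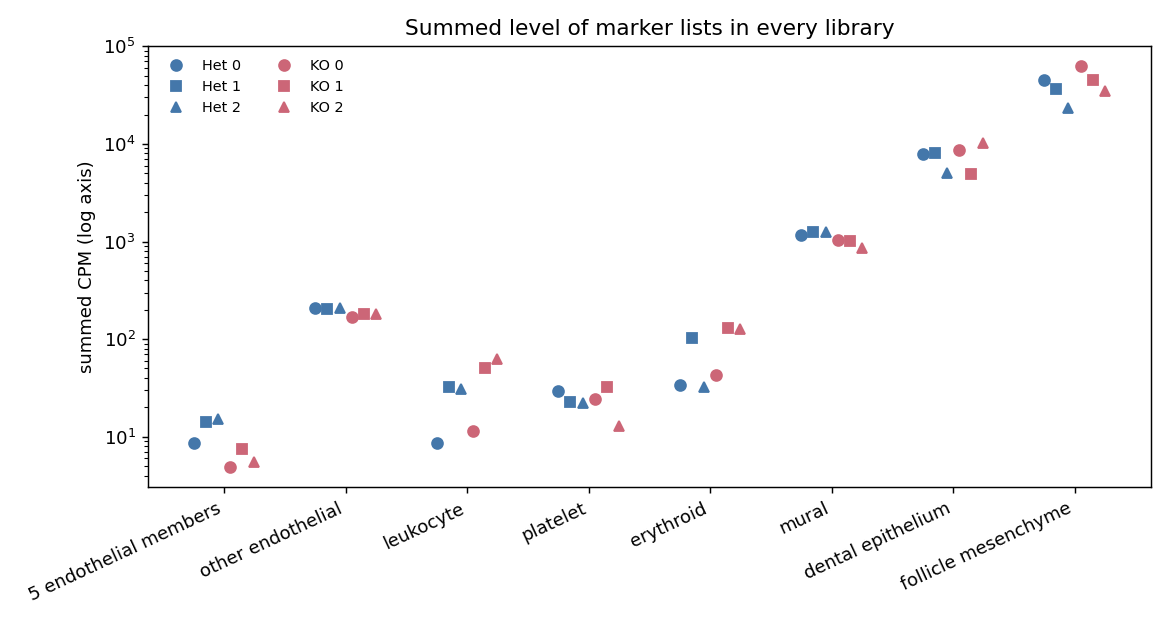
Summed CPM of marker lists (vertical axis, logarithmic) in each library, with libraries labelled Het in blue and KO in red and symbols by replicate number. The 5 endothelial members sum to 4.91 to 15.1 CPM, against 4929 to 10308 CPM for dental epithelium and 23308 to 62879 CPM for follicle mesenchyme.

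The genes most like Pecam1 across the 6 libraries, by the root mean square difference of log2 CPM centred on each gene's mean, were Pik3cg (0.24), Nipal4 (0.35) and Fam169a (0.35), among 13126 genes compared. Pik3cg, a lipid kinase subunit, was at 1.54, 2.81 and 4.69 CPM in Het and 0.492, 1.81 and 0.913 CPM in KO libraries. Those most like Vegfa were Nap1l1 (0.04), 0610007P22Rik (0.04) and Whsc2 (0.04), with Nap1l1, a histone chaperone, at 166, 180 and 148 against 198, 187 and 204 CPM. With 6 libraries and this many genes, close matches are found for any pattern, and they are given as a description.

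The FPKM values did not track the counts equally in all libraries. Dividing counts by FPKM, relative to the median gene of each library, gave for Angpt1 1.51 and 1.56 times the gene's own median in the Het and KO libraries numbered 2, and 0.969 to 1.01 in the other 4. For Vegfb the same libraries gave 0.677 and 0.624, against 0.999 to 1.02 elsewhere, and for Vegfa 1.15 and 1.11. Kdr and Pecam1 stayed between 0.915 and 1.04. Over 12319 genes with enough counts, 51.8% differed by more than 1.2-fold in both libraries numbered 2 while the other 4 libraries lay within 1.2-fold of one another. The share was 0.170% for the libraries numbered 0 and 0.714% for those numbered 1.

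Each group has 1 such library. Angpt1 had 23.3 and 21.1 CPM in Het and KO replicates 2 and 3.29 and 2.91 FPKM there, whereas KO replicates 0 and 1 had 37.3 and 30.2 CPM and 8.96 and 7.36 FPKM. Without the 2 libraries the order of the members per length was the same down to Pecam1, with Tek and Cdh5 exchanged below it, and the ranges of Angpt1 and Angpt2 no longer overlapped.

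**Figure D4:**
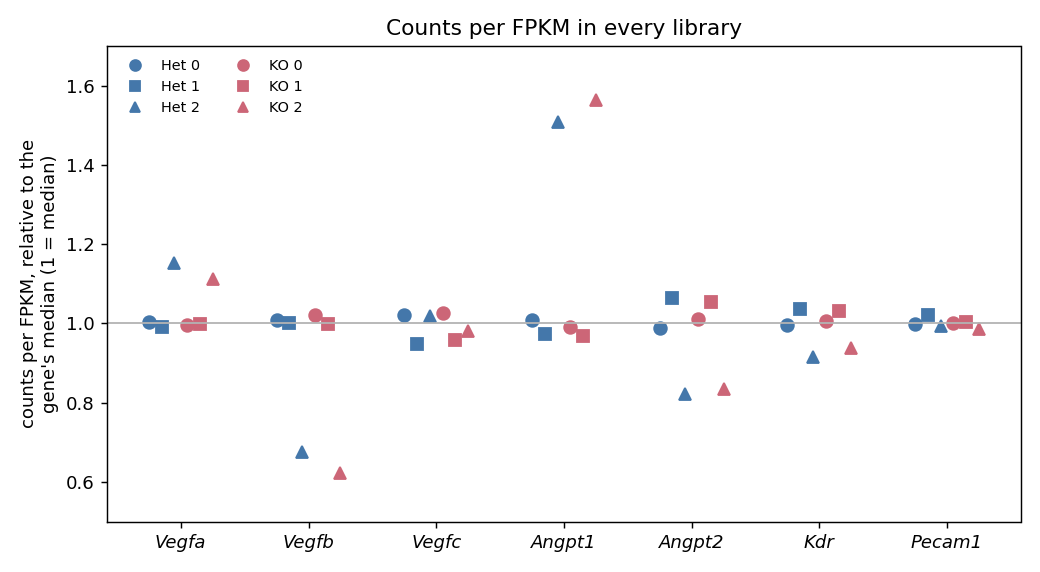
Counts per FPKM in each library (vertical axis), scaled to the library's median gene and to the gene's own median, for the 7 members with enough counts in every library. Triangles are the libraries numbered 2, which stand at 1.51 and 1.56 for Angpt1 and at 0.677 and 0.624 for Vegfb while the other libraries stay near 1.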

How the data were processed

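RNA from sorted tdTomato+ cells was isolated with PicoPure, turned into cDNA with SMART-Seq v4 Ultra Low Input and made into libraries with Nextera XT, per the labels' protocols. No molecular identifiers are named, so floors describe counting error alone. The authors worked on mm10, and the submitters' processing notes list TopHat2 2.0.13, Bowtie2 2.2.1, HTSeq, Cufflinks, Cuffdiff, FastQC and DESeq2 with no roles. The annotation and strand setting were not given in any source used here. The main values are raw counts by symbol, deposited by the authors. The authors' deposited estimated counts (23107 symbols, rounded before use) and deposited FPKM values served as alternatives, and FPKM for levels per length. Scaled and regularised-log tables were not used.

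Counts were fitted with edgeR 4.0.16 in R 4.3.3 (quasi-likelihood test, TMM, default filter, no covariates) over the whole table, with Benjamini-Hochberg adjustment over 14632 genes and a two-sided threshold of 0.05. The script was tested on simulated data. Alternatives were RLE size factors, no filter, a filter of 1 CPM in 3 libraries, DESeq2 1.42.0, limma-voom with quality weights (limma 3.58.1), estimated counts, limma-trend on log2(FPKM + 1) with and without a filter and on log2(FPKM + 0.1), the replicate number as a block, and each library left out. A fit without both libraries numbered 2 was chosen after seeing the data.

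The members and lists were chosen with earlier results of these data known. Named by rule are all members, Pth1r and Pthlh, up to 2 genes of each list with the smallest unadjusted p, and the 3 genes most like Pecam1 and Vegfa. Other genes named (such as Emcn, Cldn5, Clec14a, Egfl7, Fli1, Nrp2, Flt4, Hif1a, Amelx, Gp9, Pdgfrb, Cspg4 and Col1a1) were picked after their values were seen. Of 128 listed genes, 120 were in the table, 2 of them under an older symbol. Gene positions are from GENCODE M21, on the mm10 assembly.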

Additional observations from a re-analysis of the deposited data

How the results depend on the processing

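Where edgeR called 0 of 14632 genes (628 at an unadjusted p under 0.05), DESeq2 called 87 genes, 66 higher and 21 lower. The count was 1 gene, higher, in limma-voom with quality weights, 1 on log2(FPKM + 1), 1 on log2(FPKM + 0.1) and 1 on log2(FPKM + 1) with a filter. Leaving out 1 library gave 0 to 1 genes, with the 1, a lower gene, found without Het replicate 0. No member passed under any of 17 alternatives, and adjusted p over their 148 fits was 0.263 or more. Direction was kept in 146 of the 148. The exception was Vegfb (0.12 on the log2 scale), at -0.032 without Het replicate 2 and -0.026 without both libraries numbered 2, and from -0.032 to 0.22 over single libraries left out.

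With the replicate number as a block, 0 genes and 0 members were called, with 908 genes at an unadjusted p under 0.05, and Tek had a log2 difference of 4.84. Deviations from the group means correlated at 0.17, 0.07 and 0.07 for libraries 0, 1 and 2 of the same number, not all over 0.1, so the numbers were not taken to pair the samples, although both libraries numbered 2 share their relation of counts to FPKM. Each library correlated best with its own number, a hint from the data and not the design.

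Low counts limit Flt1, Tek and Cdh5 most, and Cdh5 was -0.29 and Pecam1 -0.64 on log2(FPKM + 1).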
